A study of Homo sapiens with 15 samples.

Results

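To describe what 1,25(OH)2D3 changed in osimertinib-resistant cells whether or not the inhibitor was present, the 6 H1975–OR libraries with 1,25(OH)2D3 were compared with the 6 without it. These are 12 of the 15 RNA sequencing libraries of the series, grouped by their labels, and the 3 libraries of vehicle-treated parental H1975 cells were not used. The human lung adenocarcinoma line H1975 carries L858R and T790M in EGFR, and H1975–OR is a single subline obtained from it by prolonged growth in osimertinib, an EGFR kinase inhibitor. Samples numbered 2 received vehicle, those numbered 3 received 1,25(OH)2D3 at 100 nM, those numbered 4 received osimertinib at 500 nM, and those numbered 5 received the combination, with 3 libraries lettered a to c in each group. Treatment lasted 96 h in medium with charcoal-stripped serum, with doses at 0, 48, and 92 h. All 12 libraries thus come from the resistant subline and share its history of inhibitor exposure. The vehicle and 1,25(OH)2D3 groups were without osimertinib, in which the line is otherwise kept, during the treatment. The RNA came from 3 separate passages, but the labels do not tie a letter to a passage.

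1,25(OH)2D3 is the hormonally active form of vitamin D3. It binds the vitamin D receptor (VDR), which pairs with a retinoid X receptor (RXR) on DNA elements called DR3, direct repeats with a short spacer, and raises transcription of nearby genes. Among these genes is CYP24A1, whose enzyme product degrades the hormone, so that its induction closes a feedback loop. In epithelial cells the hormone is also known for raising E-cadherin and for slowing proliferation. Proliferation is read here from genes of S and G2/M phase and from replication-dependent histone genes, whose transcripts are made with newly copied DNA and, lacking a poly(A) tail, are kept in total RNA libraries.

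Library totals (estimated counts) ran from 4724371 to 5240477 without 1,25(OH)2D3 and from 4378030 to 6140120 with it. The mean difference over the 6 pairs matched on letter and osimertinib was 57010 counts ± 761200 (SD, n = 6 pairs), and an exact permutation test over 64 sign patterns, two-sided, gave p = 0.906. Sample 3a stood apart. Its log2 levels had a mean correlation of 0.907 with those of 3b and 3c, against 0.962 between 3b and 3c, and mitochondrially encoded transcripts took 1.54% of its counts, against 0.424% to 1.04% in the other 11 libraries. Sample 3a belongs to the design and was kept, and results are also given without it. The 20 lung epithelial and keratin markers summed to 3511 to 4330 CPM (counts scaled to library size with TMM factors) without and 3205 to 4275 with 1,25(OH)2D3, nearly all of it from KRT7, KRT8, KRT18, and KRT19. NKX2-1 and EPCAM were detected, but the surfactant genes, NAPSA, and SLC34A2 never exceeded 15 counts, CEACAM5 was at 0, and only 9 of the 20 markers passed the filter on low counts. The 16 fibroblast, endothelial, and blood markers summed to 51.0 to 116 CPM without and 57.2 to 175 CPM with it, with CD3E, CD163, and HBA1 at 0 in every library. COL3A1, itself a member of the response below, made up most of the highest of these sums. In bulk RNA, fewer cells of a kind and less RNA per cell cannot be told apart.

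1,25(OH)2D3 raised 104 genes and lowered 47 of the 12350 tested at an adjusted p under 0.05 (edgeR quasi-likelihood test with osimertinib and the replicate letter as covariates), 0.842% and 0.381% of the genes. The rises were larger than the falls. The median rise was 0.96 on the log2 scale, with 49 rises of at least 1, while the median fall was -0.60, with 2 falls of at least 1. Each of the 151 genes moved the same way in all 6 matched pairs. Over all genes tested, 5.58% were higher and 5.17% lower in all 6 pairs. For 54 of the 104 raised genes and 6 of the 47 lowered ones, the 6 libraries of one side did not overlap the 6 of the other, against 0.599% and 0.235% of all genes. The plot of fold change against p shows the imbalance, with CYP24A1 alone at its far corner.

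**Figure D1:**
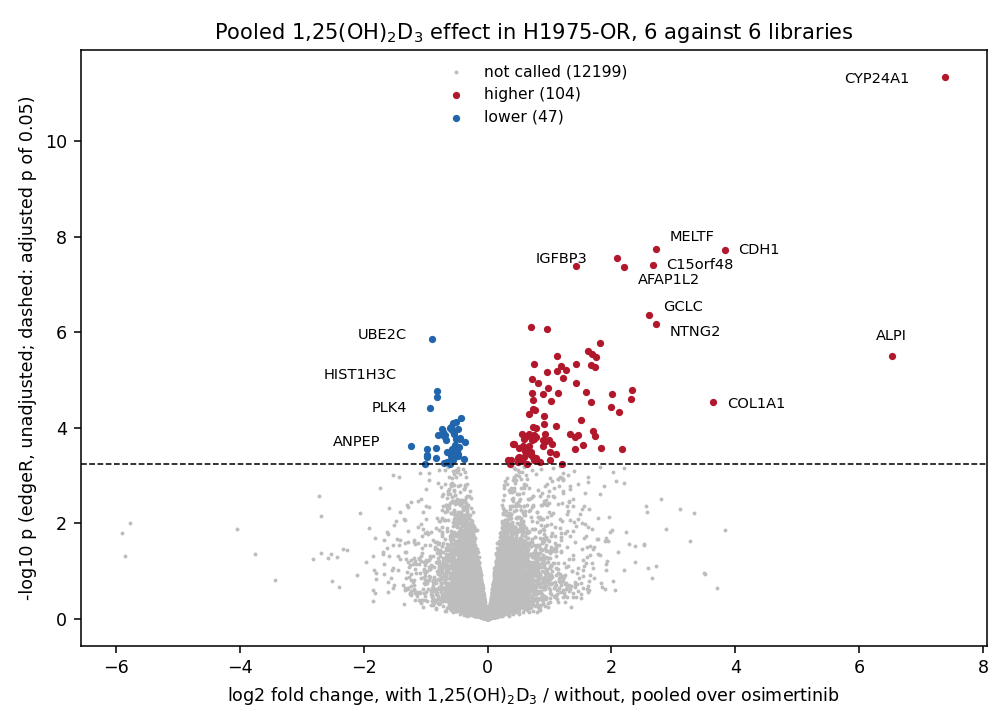
Pooled 1,25(OH)2D3 effect of 12350 genes in 12 H1975–OR libraries, with the log2 fold change on the x axis and -log10 of the unadjusted edgeR p on the y axis. Red points are the 104 genes called higher and blue points the 47 called lower, and the dashed line is at the largest p that passed an adjusted p of 0.05.

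CYP24A1 (chr20:54143538-54173986, GRCh38.p14) showed the largest fold of any gene above 10 CPM. It read 8.54, 3.27, and 4.78 CPM in the vehicle libraries and 9.13, 3.45, and 6.88 CPM with osimertinib alone. With 1,25(OH)2D3 it read 1012, 862, and 1458 CPM, and with both agents 1056, 666, and 902 CPM. The lowest library with the hormone was thus far above the highest without it, in either arm. The pooled log2 fold change was 7.39 ± 0.22 (SE, n = 6 a side), a 168-fold rise (adjusted p = 5.60e-08, edgeR). By group, CYP24A1 rose from 5.53 ± 2.71 to 1111 ± 310 CPM without osimertinib and from 6.49 ± 2.86 to 874 ± 196 CPM with it (SD, n = 3).

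Other genes known as targets of the receptor moved less. IGFBP3, which encodes a secreted binder of insulin-like growth factors, ranged from 28.3 to 68.1 CPM (median 37.6) without and from 82.1 to 333 CPM (median 157) with 1,25(OH)2D3, a log2 fold change of 2.10 ± 0.14. Both letter a libraries with the hormone, 3a and 5a, were the highest, as letter a was also the highest without it. CLMN (calmin) rose by a log2 fold change of 1.41 ± 0.25, and NINJ1, a membrane protein of cell adhesion and rupture, by 0.71 ± 0.09, in both cases with no overlap between the sides. Of 23 listed targets, 15 passed the filter on low counts and 4 of them were called higher (CYP24A1, IGFBP3, CLMN, NINJ1) and none lower. The 4 are 26.7% of those tested, against 0.842% of all genes. Without Sample 3a, 8 were called higher and the list median moved from 1.85 to 1.21, and DESeq2 called 10. The 8 others, among them the intestinal calcium channel TRPV6, never exceeded 4 counts. A target can pass that filter through the libraries in which it is high. The list was therefore also read at 10 counts or more in every library. There 8 remained, all with a positive log2 fold change (median 1.03, against 0.00 over 10149 genes). Of these 8, 5 were called higher, as were 123 of the 10149.

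ALPI, intestinal alkaline phosphatase, was chosen after its values were seen, since it fell under the level set for named genes. It had 0 counts in 5 of the 6 libraries without 1,25(OH)2D3 and 2 counts in Sample 4b, and between 19 and 100 counts in the 6 with it. A count of 0 allows up to 3 counts for counting error alone. Against 3 counts in each library without 1,25(OH)2D3, its mean of 8.81 CPM with it (here scaled to library totals without TMM factors) was 14.7-fold higher. For Sample 4b, with 2 counts, 3 is not such a limit, so this fold is not a strict lower bound.

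The receptor itself did not pass the test. VDR mRNA ranged from 17.7 to 33.8 CPM (median 26.6) without and from 20.6 to 52.0 CPM (median 32.2) with 1,25(OH)2D3, with the highest value in Sample 3a, and the log2 fold change was 0.37 ± 0.13 (adjusted p = 0.301, edgeR). RXRA, a partner receptor, had a log2 fold change of -0.74 ± 0.47 (adjusted p = 0.563). Among 14 tested genes for the receptor, its partners, coregulators, and vitamin D metabolism, CYP24A1 was the only one called. CYP27B1, the enzyme that makes 1,25(OH)2D3, never exceeded 6 counts and was not tested. CAMP, an antimicrobial peptide gene used as a readout of the hormone, lay between 0.190 and 6.31 CPM without and between 0 and 3.50 CPM with it (log2 fold change -0.46 ± 0.51, adjusted p = 0.738). None of the 17 tested genes of calcium handling was called in the pooled edgeR test, and 5 higher and 1 lower had an unadjusted p under 0.05. At that level, 817 of all 12350 genes tested were higher and 693 lower.

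RefSeq promoter windows of GRCh38.p14 (250 bases before to 50 after a start) were searched for DR3 on both strands. It occurred in 26 of 35116 windows, 0.0740%. Windows were on hand for 70 of the 104 raised and 38 of the 47 lowered genes, and none of them held it. CYP24A1 had no window there. Among tested genes, 7 of 10063 windows held DR3. At shares this low, sets of 70 and 38 windows would mostly hold none whether or not the genes responded. The search therefore cannot tell whether raised genes carry the element, and no conclusion is drawn from it. It covers a fixed letter pattern in these windows only.

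CDH1, which encodes E-cadherin of adherens junctions, had the next largest rise above 10 CPM. It read 9.35, 6.13, and 5.16 CPM with vehicle and 105, 107, and 150 CPM with 1,25(OH)2D3. In the osimertinib arm it read 6.66, 4.87, and 2.43 CPM without the hormone and 67.4, 43.7, and 39.1 CPM with it. No library with 1,25(OH)2D3 overlapped one without, and the levels with both agents lay below those with the hormone alone. The log2 fold change was 3.83 ± 0.25, a 14.2-fold rise (adjusted p = 7.52e-05, edgeR), and it was 3.96 without Sample 3a.

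CLDN4 (claudin-4), of tight junctions, rose from 39.2 to 64.4 CPM (median 49.4) to 78.3 to 105 CPM (median 95.8), with no overlap, a log2 fold change of 0.89 ± 0.12. These were the only 2 called among 22 tested junction genes (9.09%, against 0.842% of all genes called higher). The median of the 22 was 0.04, close to that of all genes (-0.01), and was -0.05 without Sample 3a. KRT7, a simple epithelial keratin, rose by 0.58 ± 0.10 and was the 1 called of 11 keratins, with overlapping sides. None of 9 desmosomal genes, 8 epithelial transcription or splicing regulators, or 11 genes of hemidesmosomes and laminin-332 was called in the pooled edgeR test. Before adjustment, p was under 0.05 for 1 higher and 1 lower desmosomal gene, 2 higher regulators, and 4 higher hemidesmosomal genes. DESeq2 called 1 hemidesmosomal gene higher, as did limma voom with sample quality weights. So did edgeR without Sample 3a, without letter a, and at 10 counts or more in every library. Of those 11 hemidesmosomal genes, 10 had positive values (median 0.40). VIM, the mesenchymal filament vimentin, had a log2 fold change of 0.07 ± 0.06 (adjusted p = 0.694, edgeR).

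The study picked 20 genes from an epithelial signature using Samples 1a to 3c other than 3a, so their direction without osimertinib is not independent of that choice. Of the 19 tested, 9 were called higher in the pooled fit (CDH1, GEM, LOX, CTSD, FN1, CLDN4, COL1A1, PTK2B, SLC4A7) and none lower, with a median of 1.10. The libraries compared within the osimertinib arm were not used in the choice. Their spread and letter terms came from the fit to all 12 libraries, however, so calls there are not fully independent of it. There 17 of the 19 had positive values with a median of 0.95, against 0.00 over all genes, and 2 passed the test (0.178% of all genes did). The plot of levels by library shows CDH1 and CLDN4 beside genes of the other groups.

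**Figure D2:**
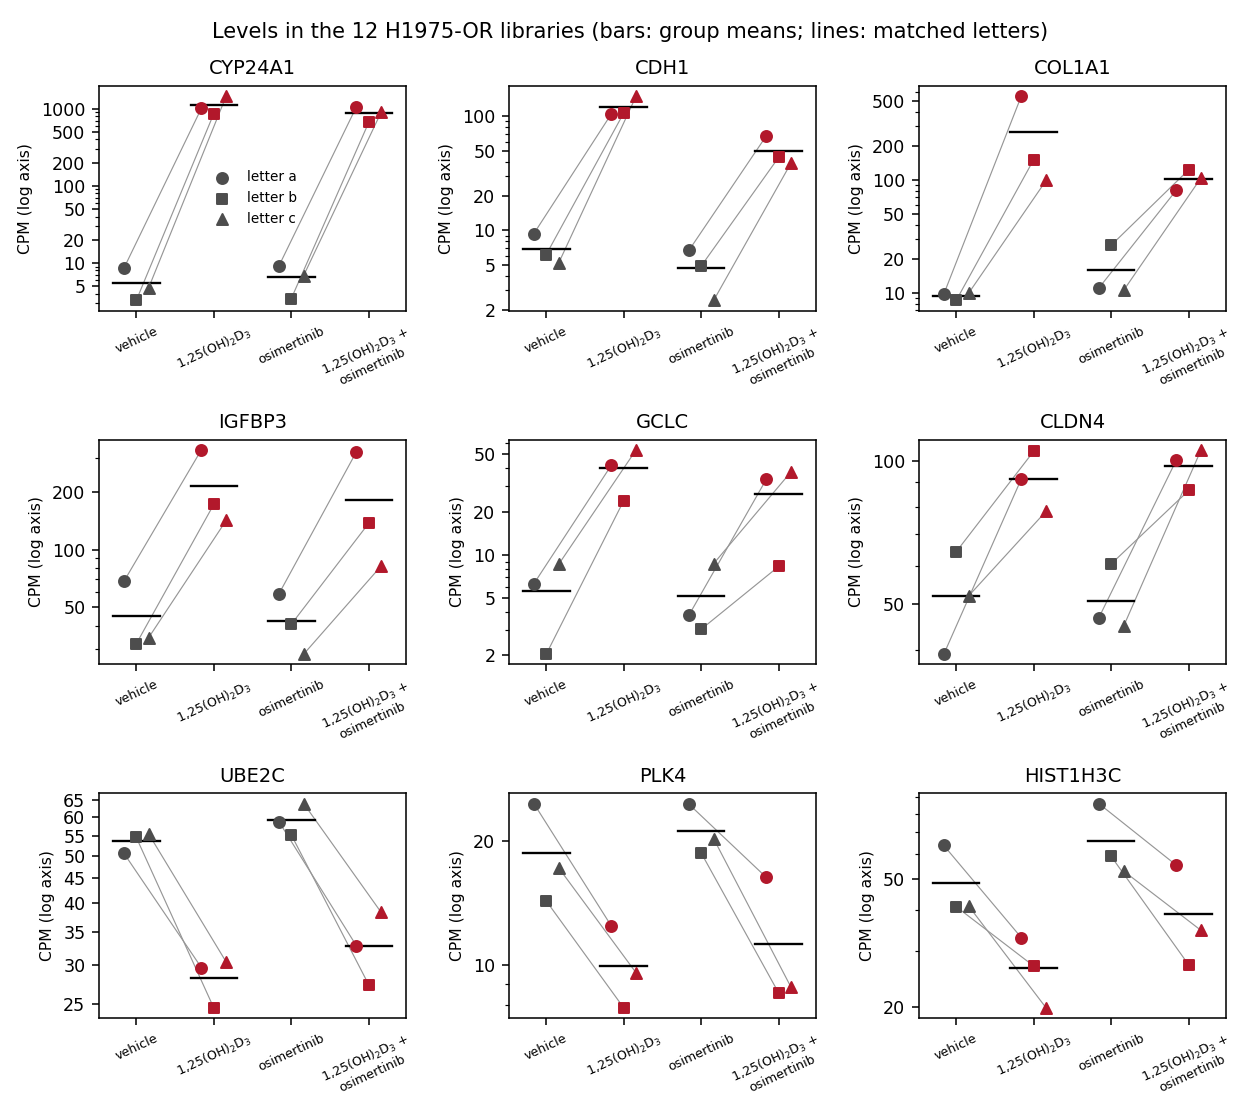
CPM on a log axis of 9 genes in the 12 libraries, with grey symbols for libraries without and red for those with 1,25(OH)2D3. Circles, squares, and triangles are letters a, b, and c, bars are group means (n = 3), and lines join libraries of 1 letter within an arm. The red symbols lie above the grey ones for the 6 upper genes in every pair and below them for UBE2C, PLK4, and HIST1H3C.

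Several genes of the extracellular matrix rose. COL1A1, a chain of type I collagen, read 9.76, 8.58, and 9.94 CPM with vehicle and 549, 151, and 98.6 CPM with 1,25(OH)2D3. With osimertinib it read 11.03, 26.4, and 10.5 CPM, and with both agents 80.9, 123, and 104 CPM. Sample 3a was by far the highest. The log2 fold change was 3.65 ± 0.52 (adjusted p = 0.00819, edgeR) with it and 3.08 (adjusted p = 2.56e-04) without it.

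LOX, which encodes the collagen cross-linking enzyme lysyl oxidase, ranged from 30.1 to 57.0 CPM (median 34.96) without and from 83.2 to 176 CPM (median 133) with 1,25(OH)2D3. COL16A1, a fibril-associated collagen, rose by a log2 fold change of 2.34 ± 0.31, MFAP4, a microfibril glycoprotein, by 2.00 ± 0.29, and fibronectin (FN1) by 1.27 ± 0.15. In each of these 4 genes the sides did not overlap. COL3A1 (0.93 ± 0.16) and the proteoglycan VCAN (0.55 ± 0.11) also rose, but with overlap. COL3A1 differed more between letters than with the hormone, lying between 12.5 and 29.1 CPM in the 4 letter a libraries and between 53.01 and 158 CPM in the other 8.

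Of 25 tested collagens and lysyl oxidases, 4 (16%, against 0.842% of all genes) were called higher, COL1A1, COL16A1, LOX, and COL3A1, and none lower. Positive values were held by 22 of the 25 (88%, against 49.2% of all genes), and the list median was 0.27. That median was 0.17 without Sample 3a, whose pair had a list median of 0.72, against 0.06 to 0.35 in the other 5 pairs. FN1 and VCAN were the 2 called among 21 mesenchymal genes and transcription factors of epithelial-mesenchymal transition, whose median was 0.07. SULF1, an enzyme that trims heparan sulfate, rose by 2.18 ± 0.41 (adjusted p = 0.0315, edgeR), a call that held in only 1 of the 12 fits that left out 1 library, the fit without Sample 3a. Among 14 matrix metalloproteinase and plasminogen system genes, MMP28, a metalloproteinase, and TIMP2, an inhibitor of such enzymes, were called higher. Neither was called in 6 of the 12 fits without 1 library. DESeq2 called 5 of the list higher, and limma voom with sample quality weights 3 higher and 1 lower. MMP2 (gelatinase A) lay between 0.761 and 9.56 CPM without and between 0 and 2.95 CPM with 1,25(OH)2D3, with a log2 fold change of -1.53 ± 0.60 (adjusted p = 0.342, edgeR). It was called in 1 of the 23 other settings that tested it, with log2 fold changes from -2.11 to -0.955.

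GCLC, the catalytic subunit of the enzyme that starts glutathione synthesis, led a group of redox genes. It ranged from 2.04 to 8.70 CPM (median 5.05) without and from 8.33 to 53.8 CPM (median 35.7) with 1,25(OH)2D3, and Sample 5b, at 8.33 CPM, was the library that overlapped the other side. Its log2 fold change was 2.61 ± 0.24. The aldo-keto reductases AKR1C1 and AKR1C3 rose by 1.73 ± 0.30 and 0.76 ± 0.11, and heme oxygenase 1 (HMOX1) by 0.91 ± 0.15. Of 29 tested targets of the transcription factor NRF2 and redox genes, 5 (17.2%, against 0.842% of all genes) were called higher, these among them. None was called lower. Without Sample 3a 5 were called higher and 1 lower, and without 1 of the other libraries 2 to 4 higher. The median of the list was 0.08. AKR1C1 and AKR1C3 are close paralogs, between which the assignment of reads is uncertain.

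The remaining leading rises were of mixed function. MELTF, which encodes the iron-binding surface protein melanotransferrin, ranged from 9.31 to 35.7 CPM without and from 69.0 to 193 CPM with 1,25(OH)2D3 (log2 fold change 2.72 ± 0.18). C15orf48, which encodes a small mitochondrial protein, rose by 2.67 ± 0.19 and AFAP1L2, a signaling adaptor, by 2.21 ± 0.16. The sides of these 3 genes did not overlap, and their calls held without any 1 library. NTNG2 (netrin-G2) rose by 2.72 ± 0.26 and DCLK1, a microtubule-associated kinase, by 2.31 ± 0.32. CLEC7A, the pattern receptor dectin-1, and MAP7D2, a microtubule-binding protein, rose by 2.12 ± 0.32 and 2.01 ± 0.28 with wide spread between letters and overlapping sides. Among 34 tested integrins, netrins, semaphorins, and receptors, NTNG2 and SEMA3B were called higher and SEMA3A lower. These are 5.88% and 2.94%, against 0.842% and 0.381% of all genes.

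Signaling lists held few calls, and 1.22% of all genes tested were called. JUNB and FOSL2, which encode AP-1 factors, rose by 1.12 ± 0.14 and 0.72 ± 0.13, and ETV1 fell by 0.47 on the log2 scale, the 3 called of 27 genes of MAPK feedback and output. INHBA, the activin A subunit, rose by 0.72 ± 0.10 and ID4 fell by 0.58, the 2 called of 42 genes of TGF-beta and BMP signaling. FAS, a death receptor, rose by 1.14 ± 0.15 and was the 1 called of 29 CDK inhibitors and p53 axis genes. The lysosomal protease CTSD rose by 1.43 ± 0.17 and the glycolytic enzyme PFKP by 0.70 ± 0.07, each the 1 called of its list of 35 and 34. No member was called in the pooled edgeR test among 14 EGF receptors and ligands, 25 apoptosis regulators, 31 inflammatory genes, 39 interferon-stimulated genes, 36 genes of the unfolded protein response, 26 YAP and actin response genes, or 35 genes of cholesterol and fatty acid synthesis. At an unadjusted p under 0.05 these lists held, in that order, 1, 1, 5, 2, 4, 1, and 1 higher and 0, 3, 3, 3, 2, 2, and 9 lower genes. Over all 12350 genes tested, 817 were higher and 693 lower at that level. The list of cholesterol and fatty acid synthesis had 27 negative values and a median of -0.25. Of its genes, 3 were called lower by limma voom with sample quality weights and 2 by DESeq2 and by edgeR without Sample 3a. In edgeR 1 was called lower without letter a, and 1 at 10 counts or more in every library. In the contrast within the arm without osimertinib, 1 YAP and actin response gene was called. The plot of gene lists gives the members of 12 lists.

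**Figure D3:**
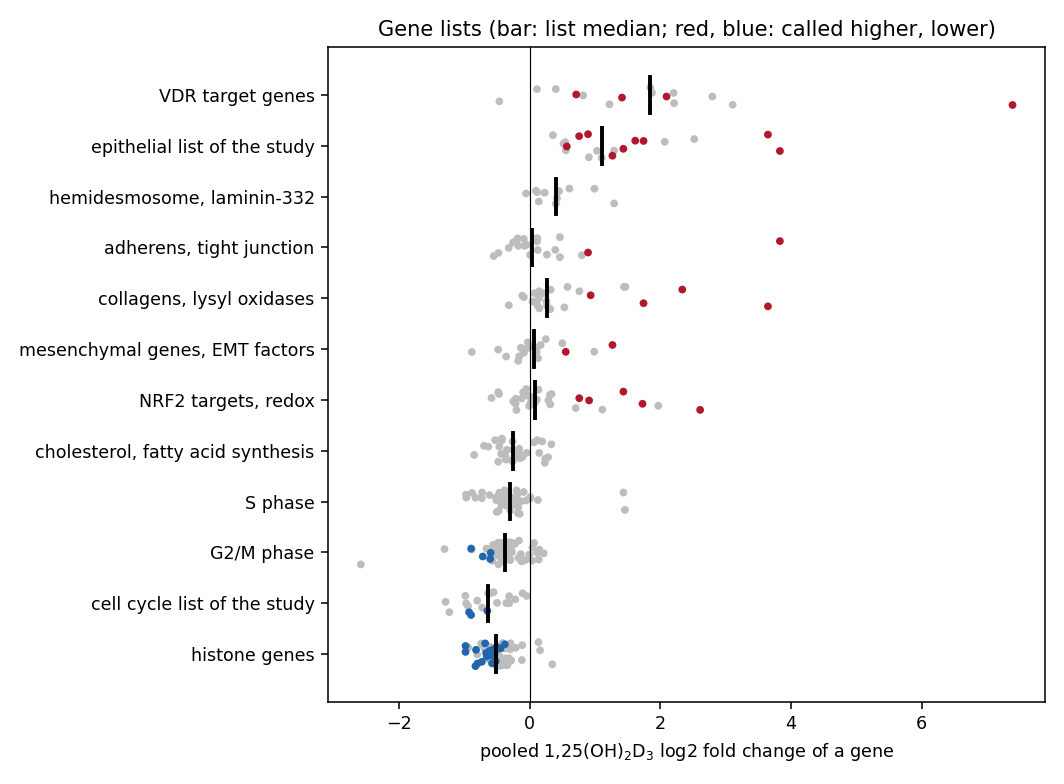
Pooled 1,25(OH)2D3 log2 fold change (x axis) of the tested members of 12 gene lists, 1 point a gene, with the vertical position within a row without meaning. Red and blue points are genes called higher and lower, black bars are list medians, from 1.85 for the receptor's targets to -0.64 for the study's cell cycle list.

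The falls were led in number by histone genes, 20 of the 47 lowered genes. Of 65 tested genes with a symbol starting HIST, a list drawn up after values had been seen, 20 (30.8%, against 0.381% of all genes) were called lower and none higher. Their median log2 fold change was -0.52, 62 had negative values, and 45 were lower in all 6 pairs. The number called rested on the model and on single libraries, at 39 with DESeq2, 1 with no replicate letter in the model, 18 without Sample 3a, 1 to 10 without 1 of the other 11 libraries, and 0 without letter b or c. Histone transcripts took 0.313% to 0.460% of the counts without and 0.223% to 0.348% with 1,25(OH)2D3, and the share was lower with it in 6 of 6 pairs, with a mean difference of -0.1004 percentage points (SD 0.0294). Copies of these genes are nearly identical, so that reads can be split among them and single genes are uncertain.

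Since the histone genes moved together, the 250 bases before the start of 1 named gene of each core type are shown (RefSeq, GRCh38.p14, read 5′ to 3′ on the gene's strand). Capitals mark the CCAAT box, the pentamer CCAAT on either strand, which binds the factor NF-Y. The windows are HIST1H4L at chr6:27873535-27873784 (minus strand), HIST1H3C at chr6:26045134-26045383 (plus), HIST1H2AL at chr6:27865067-27865316 (plus), and HIST1H2BJ at chr6:27132796-27133045 (minus).
HIST1H4L: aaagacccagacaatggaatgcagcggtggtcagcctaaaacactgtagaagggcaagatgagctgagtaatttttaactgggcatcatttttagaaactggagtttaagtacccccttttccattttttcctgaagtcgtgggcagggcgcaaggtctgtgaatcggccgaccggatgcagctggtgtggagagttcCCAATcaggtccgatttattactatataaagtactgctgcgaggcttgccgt
HIST1H3C: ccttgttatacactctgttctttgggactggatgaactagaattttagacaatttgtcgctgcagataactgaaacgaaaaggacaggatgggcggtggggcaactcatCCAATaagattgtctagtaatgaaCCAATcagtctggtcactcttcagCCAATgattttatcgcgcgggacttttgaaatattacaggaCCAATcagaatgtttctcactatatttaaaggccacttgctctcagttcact
HIST1H2AL: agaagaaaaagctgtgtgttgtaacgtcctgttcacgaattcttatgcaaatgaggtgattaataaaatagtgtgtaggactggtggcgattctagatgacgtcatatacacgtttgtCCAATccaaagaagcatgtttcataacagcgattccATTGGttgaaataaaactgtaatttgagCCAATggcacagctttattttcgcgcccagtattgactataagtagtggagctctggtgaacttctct
HIST1H2BJ: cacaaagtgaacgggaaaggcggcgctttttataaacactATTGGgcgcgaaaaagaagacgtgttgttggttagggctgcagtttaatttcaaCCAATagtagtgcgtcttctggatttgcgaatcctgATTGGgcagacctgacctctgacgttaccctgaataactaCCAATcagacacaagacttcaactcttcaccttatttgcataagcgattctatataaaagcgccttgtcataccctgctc
These 4 windows held 1, 4, 3, and 4 copies. The pentamer was in 15 of the 16 lowered histone genes with a window (93.8%), in 47 of 55 tested histone genes (85.5%), and in 11240 of all 35116 windows. It was in 7 of 22 windows of other lowered genes and 20 of 70 of raised genes. A match describes the sequence and does not show binding.

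HIST1H3C, an H3 gene, ranged from 41.1 to 85.9 CPM (median 55.9) without and from 19.9 to 55.3 CPM (median 30.0) with 1,25(OH)2D3, a log2 fold change of -0.82 ± 0.11 (adjusted p = 0.00633, edgeR). The sides overlapped through Sample 5a, while within each pair the library with the hormone was lower. The falls of HIST1H4L (-0.98 ± 0.18), HIST1H3J (-0.98 ± 0.19), HIST1H2AL (-0.83 ± 0.15), HIST1H2BJ (-0.80 ± 0.14), and HIST1H2AJ (-0.73 ± 0.12) were of like size, but their calls were lost in 7 to 12 of the 12 fits without 1 library. That of HIST1H3C was kept in all 12.

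UBE2C, a ubiquitin-conjugating enzyme of mitotic exit, was the fall with the smallest p. It read 50.6, 54.6, and 55.4 CPM with vehicle and 29.6, 24.5, and 30.4 CPM with 1,25(OH)2D3. With osimertinib it read 58.8, 55.2, and 63.9 CPM, and with both agents 32.8, 27.3, and 38.4 CPM. The sides did not overlap, and the log2 fold change was -0.90 ± 0.09, a 1.86-fold fall (adjusted p = 0.00145, edgeR). PLK4, the kinase of centriole duplication, ranged from 14.3 to 24.6 CPM (median 19.5) without and from 7.88 to 16.3 CPM (median 9.21) with the hormone, a log2 fold change of -0.93 ± 0.14.

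Of 50 tested G2/M genes, 4 (8%, against 0.381% of all genes) were called lower and none higher. These were UBE2C and the spindle and cytokinesis genes DLGAP5, NUSAP1, and ANLN. Of the 50, 43 had negative values, and the list median was -0.38. None of 43 S phase genes was called in the pooled edgeR test (17 had an unadjusted p under 0.05, all lower), while DESeq2 called 2, limma voom 1, and edgeR at 10 counts or more in every library 1. The list had 38 negative values and a median of -0.30. The medians of the histone, G2/M, and S phase genes were negative in each of the 6 pairs, as the plot of list medians by pair shows, while that of all genes lay between -0.01 and 0.00. In the pair of Sample 3a the 82 ribosomal protein genes, listed after values had been seen, also had a median of -0.37, against -0.04 to 0.04 in the other 5 pairs. Without Sample 3a, the medians were -0.48, -0.38, and -0.33 for histone, G2/M, and S phase genes, with 18, 4, and 0 called lower. Without 1 of the other 11 libraries, 1 to 10 histone and 1 to 3 G2/M genes were called lower, with 1 histone gene without Sample 2c or 5b and 1 G2/M gene without Sample 2a, 2c, 4c, or 5b. The list medians stayed negative in all of these fits.

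**Figure D4:**
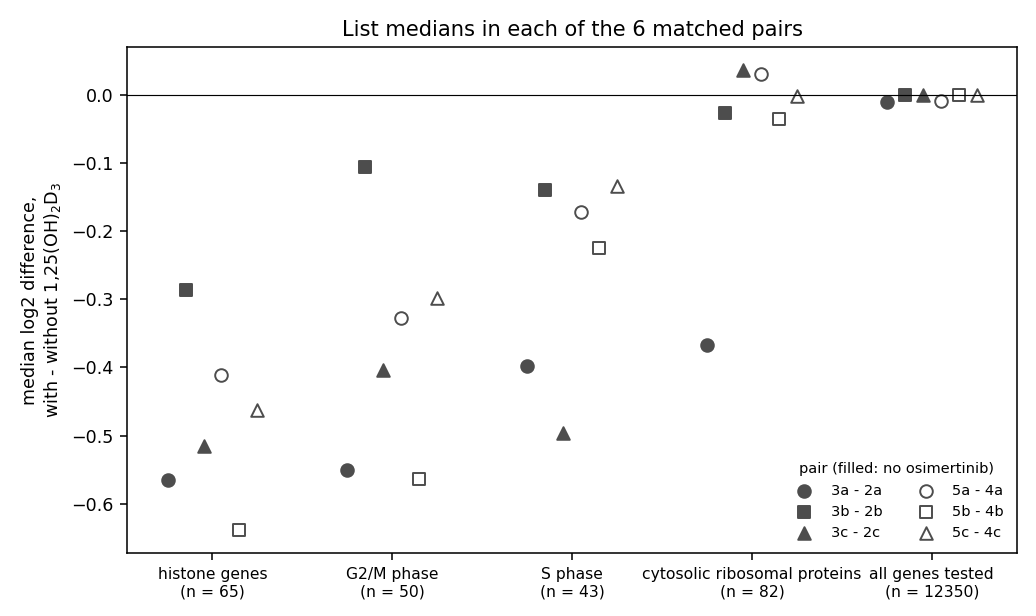
Median log2 difference between libraries with and without 1,25(OH)2D3 (y axis, on log2(CPM + 2)) over the genes of 4 lists and over all genes tested, in each of 6 matched pairs. Filled symbols are pairs without and open symbols pairs with osimertinib. The histone, G2/M, and S phase medians are below 0 in all pairs, and the ribosomal protein median is low in the pair of Samples 3a and 2a.

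The study chose 20 cell cycle genes in the same way as the epithelial ones. All 20 had negative pooled values (median -0.64), and 3 were called lower, UBE2C, PLK4, and EDN1, which encodes the secreted peptide endothelin-1. In the osimertinib arm, whose libraries that choice did not use, 15 of 20 had negative values and the median was -0.35. None passed the test there, which took its spread from the fit to all 12 libraries.

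Other falls lay outside these lists. NES, the intermediate filament nestin, ranged from 213 to 568 CPM (median 313) without and from 106 to 323 CPM (median 206) with 1,25(OH)2D3, a log2 fold change of -0.82 ± 0.11, and its call held without any 1 library. ANPEP (aminopeptidase N, -1.24 ± 0.23), PTGS1 (cyclooxygenase-1, -1.003 ± 0.21), SEMA6B (a semaphorin, -0.99 ± 0.19), TBL1XR1 (a transcriptional coregulator, -0.98 ± 0.19), and LMNB1 (lamin B1, -0.83 ± 0.17) also fell. The calls of these 5 genes were lost in 9 to 11 of the 12 fits without 1 library, and those of PTGS1 and LMNB1 without Sample 3a. Only LMNB1 had no overlap between the sides.

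Contrasts within each arm, both taken from 1 fit to all 12 libraries with the letter, called fewer genes. Without osimertinib 47 genes were called (40 higher, 7 lower), 0.381% of those tested, and with osimertinib 22 (17 higher, 5 lower), 0.178%. The lists had 13 genes in common, 27.7% of the first and 59.1% of the second. All 47 moved the same way with osimertinib, with a median size of 0.99 there and 1.54 in their own arm, and all 22 moved the same way without it, with medians of 1.31 and 1.96. A list called in 1 arm is expected to be larger there. Of the 151 genes of the pooled test, 106 were called in neither of these contrasts. When only the libraries of 1 arm were fitted, 3 genes were called without osimertinib and 9 with it.

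No gene passed the edgeR test of the difference between the arms, and 466 genes (3.77%) had an unadjusted p under 0.05. The lowest adjusted p was 0.348. DESeq2 called 14, of which 6 were MTRNR2L genes, near-identical copies related to mitochondrial ribosomal RNA. Among the 104 raised genes, 76 had the smaller rise with osimertinib, with medians of 0.99 without and 0.85 with it, and among the 47 lowered genes 25 had the smaller fall. CYP24A1 rose by 7.69 ± 0.29 without and 7.10 ± 0.28 with osimertinib, CDH1 by 4.20 and 3.42, COL1A1 by 4.64 and 2.74, and LOX by 2.22 and 1.28. C15orf48 rose by 2.68 and 2.67. All of the values without osimertinib include Sample 3a. Its pair had the largest change of the 6 for 46 of the 104 raised and 16 of the 47 lowered genes. The median difference of the raised genes was 1.06 in that pair and 0.83 and 0.98 in the pairs of 3b and 3c. In the pairs of 5a, 5b, and 5c it was 0.81, 0.67, and 0.83. The part of Sample 3a in the smaller rises with osimertinib was not tested. The plot of both arms shows the raised genes along and somewhat below the line of equal effects, and the lowered genes on both sides of it.

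**Figure D5:**
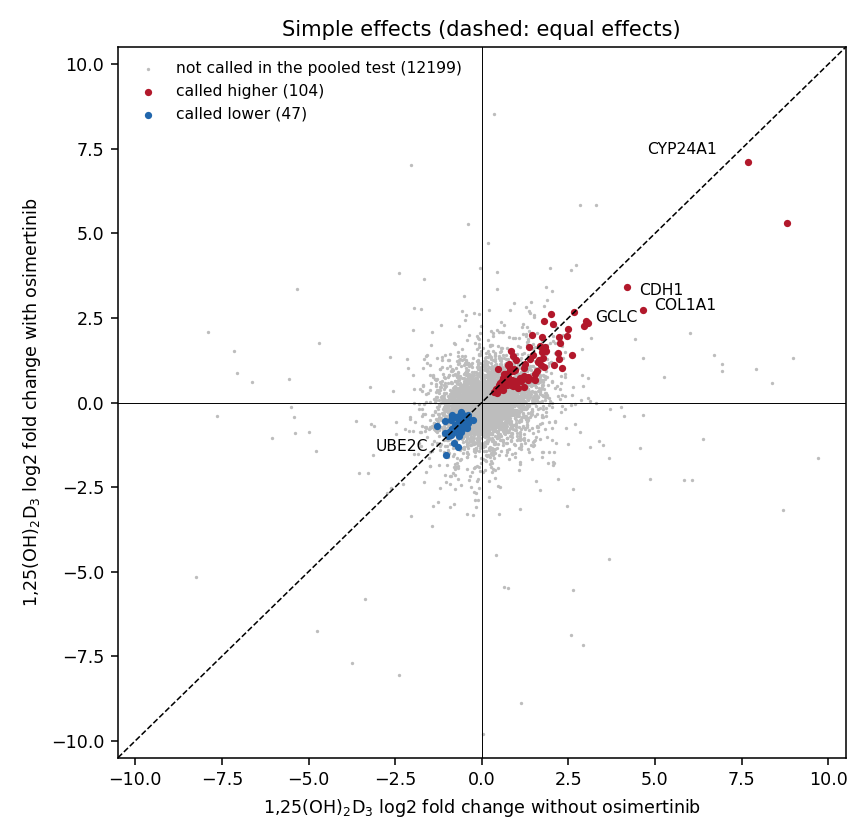
1,25(OH)2D3 log2 fold change without (x axis) and with osimertinib (y axis) for 12350 genes, fitted on 12 libraries. Red and blue points are genes called higher and lower in the pooled test, whose choice used both axes, and the dashed line marks equal effects. The unlabelled red point at the far right is ALPI.

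The number of calls rested on the replicate letter. Without it in the model, 51 genes were called (48 higher, 3 lower), all among the 151, and the direction of every one of the 151 was kept. Leaving out Sample 3a gave 116 higher and 50 lower, with 129 of the 151 called again, while leaving out any of the other 11 libraries gave 52 to 92 calls in all. In all 12 fits without 1 library, 42 of the 104 rises and 4 of the 47 falls (UBE2C, PLK4, HIST1H3C, NES) were called. Among the other named genes, the calls of CLMN, KRT7, COL3A1, VCAN, MMP28, TIMP2, AKR1C1, AKR1C3, HMOX1, FOSL2, ETV1, ID4, SEMA3A, PTK2B, SLC4A7, DLGAP5, NUSAP1, and ANLN were lost in at least 2 of these fits, that of EDN1 in all 12, and that of CLEC7A without Sample 4c. Of these, VCAN and EDN1 were lost without Sample 3a (adjusted p = 0.0648 and 0.0683, edgeR).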

How the data were processed

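The authors made libraries with a stranded total RNA kit, sequenced paired ends on a NextSeq500, quantified transcripts of hg38 with Kallisto, and brought them to gene level with tximport. The submitters' processing notes name CASAVA 1.8.2, STAR 2.5.2b, kallisto 0.43.0, and GRCh38. The deposited values are estimated counts made by the authors for 19612 gene symbols, unscaled, and they were rounded to whole numbers here. Reads shared by near-identical genes are split by estimation. The letters are not stated to mark a shared passage, so p-values measure the spread between these libraries. The members and gene lists were chosen with earlier results of these data known, and the histone and ribosomal protein lists and the CCAAT search were added after values had been seen.

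Genes were filtered with filterByExpr (minimum count 10, minimum total 15), which left 12350 and removed 7262, scaled by TMM, and tested with edgeR 4.0.16 in R 4.3.3 (glmQLFTest, letter + osimertinib + 1,25(OH)2D3, Benjamini-Hochberg adjustment, threshold 0.05). Effects within each arm and their difference came from a second fit with the 4 groups and the letter. CPM are counts scaled to library size with TMM factors, apart from those of ALPI, which were scaled to library totals alone. Values per pair are on log2(CPM + 2). Standard errors were computed from the quasi-likelihood F. Named genes are the 15 largest rises and falls of the pooled test with a mean of at least 10 CPM on the higher side and the same direction in 6 pairs, called list members, and genes the study measured apart. S and G2/M genes come from Seurat 5.3.0. Single values per library were tested by exact sign-flip permutation. The test was also tried on simulated counts, which held no letter effect and no outlying library. The outcome of that trial is not reported here, and no result rests on it. The values of 1 gene are not reported here. The alternatives were RLE scaling, DESeq2 1.42.0, limma 3.58.1 voom with and without sample weights, other filters, no letter, the average of both arms, a pseudocount of 0.5, the groups of 1 arm alone, and libraries or letters left out. One more, without both Sample 3a and the letter, was chosen after seeing the data.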

Additional observations from a re-analysis of the deposited data

Results flagged for a closer look

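The difference in mitochondrial share between libraries with and without 1,25(OH)2D3 was 0.794 percentage points in the pair of Samples 3a and 2a, against -0.256 to 0 in the other 5 pairs, a gap that made this pair an outlier among the 6. Chance flags about 1 in 20 of unselected values. That rate need not hold for the 30 named genes, which were chosen for the same direction in all 6 pairs. Of 33 values tested in this way, the matched differences of those 30 genes and 3 library totals or shares, the mitochondrial share was the only 1 flagged. The mean difference was 0.0549 points over all pairs (exact permutation test, two-sided, p = 1.00, n = 6) and -0.0929 without this pair (exact permutation p = 0.125, where 0.0625 is the smallest that 5 pairs allow). The 13 mitochondrially encoded mRNAs had a median log2 difference of 2.40 in that pair, and none was called in the pooled edgeR test (0 had an unadjusted p under 0.05, and DESeq2 called 0). The part of this share in the results was not tested beyond leaving Sample 3a out.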

How the results depend on the processing

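None of the 151 pooled calls changed direction in any of the 24 other settings that tested it (144 of the 151 were tested at 10 counts or more in every library), and 7 were called in all of them. Of the named genes, 13 of 15 rises and 4 of 15 falls were called in each of the 12 fits without 1 library, and 15 and 12 without Sample 3a. The pooled count of 151 (104 higher, 47 lower) became 392 (248 and 144) with DESeq2, 314 (212 and 102) with sample quality weights, 51 (48 and 3) with no replicate block, and 45 (41 and 4) without both Sample 3a and the block. It lay between 52 and 166 (47 to 116 higher, 5 to 50 lower) without 1 library, and between 8 and 80 (8 to 66 and 0 to 14) without 1 letter, which removes 4 libraries. The 8 remained without letter c and 11 without letter b. The share of rises, 68.9%, was 94.1% with no block and 76.1% to 91.0% without 1 library other than 3a. The genes changed by 1,25(OH)2D3 without osimertinib (47) and the genes changed by 1,25(OH)2D3 with osimertinib (22) became 223 and 105 with DESeq2, 18 and 5 with no block, 3 and 9 with the groups of that arm alone, 12 and 12 without both Sample 3a and the block, and 13 to 48 and 7 to 33 without 1 library. The difference between the arms gave 0 genes in every edgeR setting and 14 with DESeq2. The CAMP log2 fold change reversed to 0.00378 without both Sample 3a and the block. The alternatives RLE, voom, other filters, and the average of both arms kept the pooled count within 1.5 times (120 to 183).

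For the replicate block, deviations from group means were compared between libraries of the same letter. Their correlation was above 0.1 in 16 of 18 pairs of libraries (-0.0168 to 0.467), with a median of 0.123 for letter b. Between libraries of different letters and groups the median was -0.161. Among libraries of other groups, each of the 12 correlated best with one of its own letter, a hint from the data and not from the labels. At depths of 4378030 to 6140120 counts, 7262 of 19612 genes had too few counts to be tested.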
